A study of Homo sapiens with 7 samples.

Results

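The 10 serine- and arginine-rich (SR) splicing factor genes SRSF1, SRSF2, SRSF3, SRSF4, SRSF5, SRSF6, SRSF7, SRSF10, SRSF11 and TRA2B were examined by transcript class. The members were taken by name, and are 10 of the 56236 genes with a transcript in the RNA-seq data. Their 108 transcripts, of 196354 in each library, were sorted by the biotype that GENCODE 44 gives them. By biotype, 40 were protein-coding, 21 were subject to nonsense-mediated decay, 29 kept an intron and 18 were other non-coding forms. The non-coding share of a gene is the percent of its estimated read counts that fell on the last 3 classes.

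The study silenced TP63, SOX2 and the long noncoding RNA CCAT1 with shRNAs in esophageal squamous cell carcinoma (ESCC) cells to find the genes under their control. TE5 and KYSE140 are established ESCC cell lines. TE5 cells carried a non-targeting scramble shRNA or an shRNA against TP63, SOX2 or CCAT1 (4 libraries), and KYSE140 cells a scramble shRNA or an shRNA against TP63 or SOX2 (3 libraries). Each condition was 1 library, the controls also carried an shRNA vector, and KYSE140 cells with CCAT1 shRNA were not analysed here.

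SR proteins bind exons and help the spliceosome to choose splice sites. Many SR genes limit their own output through exons or introns that hold a premature stop codon, often called poison exons, and transcripts that include them are degraded by nonsense-mediated decay. Retained-intron transcripts largely stay in the nucleus and give no full-length protein.

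Total estimated counts ranged from 68532611 to 98036494 per library. TP63 was at 25.4% of its scramble level in TE5 shTP63 and at 26.1% in KYSE140 shTP63, whereas SOX2 was at 39.6% in TE5 shSOX2 and at 77.1% in KYSE140 shSOX2. SOX2 was also at 67.2% in TE5 shTP63, against 104% in KYSE140 shTP63. TP63 was at 116% in TE5 shSOX2 and at 127% in KYSE140 shSOX2. The level of CCAT1 was not analysed here. Squamous markers marked both lines, with KRT5 at 201 to 702 TPM (transcripts scaled for length and depth) in TE5 and at 4916 to 12251 TPM in KYSE140, although KRT14 stayed at or below 0.546 TPM in TE5. Of 5 leukocyte markers, PTPRC, CD3E, CD79A and LYZ were at or below 0.476 TPM in every library and CD68 was at 2.57 to 116 TPM. Of 5 fibroblast markers, COL1A2, DCN and PDGFRB were at or below 0.809 TPM, COL3A1 at up to 1.73 TPM and COL1A1 at 12.6 to 44.4 TPM. Over all protein-coding genes, retained-intron transcripts took 3.36% of counts in TE5 scramble and 4.02% to 4.18% in the TE5 knockdowns, and 4.55% in KYSE140 scramble against 4.91% and 5.26% in its knockdowns. TE5 scramble was the only library of flow cell FCHCGJ3BBXX, and within each line the scramble and knockdown libraries ran in different lanes, so the shRNA effect and the lane cannot be told apart.

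The premature stops are shown first, because most decay counts of SRSF3, SRSF6, SRSF7 and TRA2B sat on transcripts that hold them. Each line runs 5′ to 3′ from the start of the exon that coding transcripts lack to the stop codon, which is in capitals (GRCh37 sequence, GENCODE 44 frame). SRSF3-203 adds a 456-base exon on the plus strand, printed over chr6:36567598-36567631. SRSF6-202 adds a 268-base exon on the plus strand, printed over chr20:42087793-42087944. SRSF7-204 adds a 449-base exon on the minus strand, printed over chr2:38976461-38976488. TRA2B-205 adds a 276-base exon on the minus strand, printed over chr3:185649560-185649640.
SRSF3-203: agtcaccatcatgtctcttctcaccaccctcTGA
SRSF6-202: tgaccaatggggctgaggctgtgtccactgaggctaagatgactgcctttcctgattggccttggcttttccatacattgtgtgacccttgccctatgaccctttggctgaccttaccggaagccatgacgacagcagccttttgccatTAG
SRSF7-204: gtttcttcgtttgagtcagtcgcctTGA
TRA2B-205: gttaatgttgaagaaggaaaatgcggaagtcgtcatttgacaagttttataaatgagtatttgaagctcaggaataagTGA

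In SRSF3-203, 3 further exons follow the stop, in SRSF6-202 there are 4, in SRSF7-204 there are 5 and in TRA2B-205 there are 8. No protein-coding transcript of the 4 genes in the files covers these stops. Of the transcripts that the annotation gives, 3 of 8 for SRSF3, 2 of 6 for SRSF6, 5 of 8 for SRSF4 and 16 of 18 for SRSF11 were quantified, and the others were not analysed here. SRSF7-208, the most abundant non-coding form of SRSF7, instead keeps the whole 875-base intron at chr2:38975796-38976670, in which the 449-base exon lies, and its reading frame ends earlier, at chr2:38976658-38976660.

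**Figure D1:**
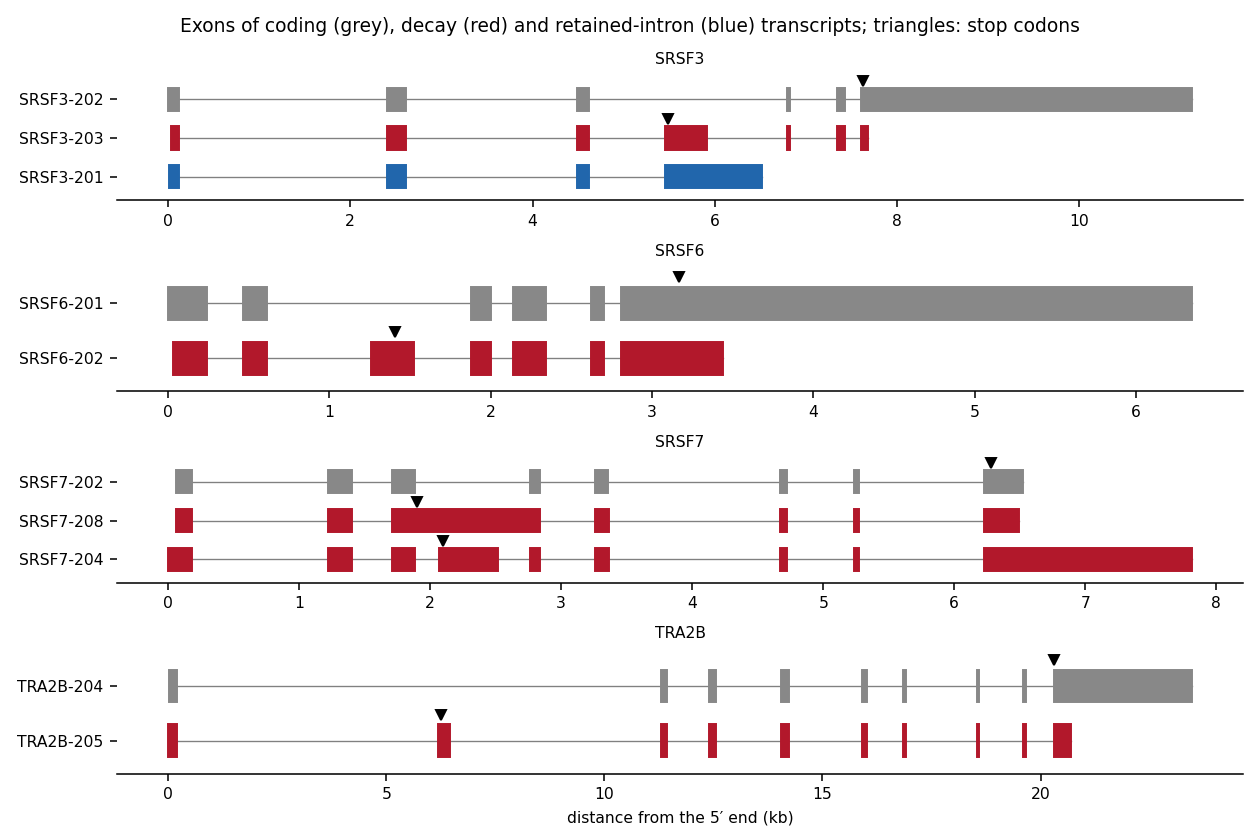
Exon maps of SRSF3, SRSF6, SRSF7 and TRA2B, with the distance from the 5′ end in kb on the x axis and each transcript on its own line. Boxes are exons of coding (grey), decay (red) and retained-intron (blue) transcripts and triangles are annotated stop codons. The stop of every decay form shown lies upstream of the stop of the coding form.

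Transcripts over the SRSF3 stop took 19.3%, 20.8%, 21.9% and 20.7% of the gene's counts in TE5 scramble, shTP63, shSOX2 and shCCAT1, and 29.4%, 31.4% and 33.4% in KYSE140 scramble, shTP63 and shSOX2. All 3 KYSE140 values lay above all 4 TE5 values. The SRSF3 stop is shared by the decay form SRSF3-203 and the retained-intron form SRSF3-201, the only non-coding transcripts of SRSF3 in the files.

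For SRSF7, forms with the 449-base exon or the intron around it held 28.6%, 31.4%, 39.2% and 36.4% of counts in TE5 scramble, shTP63, shSOX2 and shCCAT1, and 53.0%, 52.5% and 53.2% in KYSE140 scramble, shTP63 and shSOX2. The lines did not overlap, and KYSE140 varied by under 1 point. SRSF7-204, with the 449-base exon, did overlap, at 11.3% to 18.1% in TE5 and 11.1% to 15.5% in KYSE140. SRSF7-208, which keeps the intron, held 17.2% to 23.7% in TE5 and 37.2% to 37.7% in KYSE140. For TRA2B, transcripts over the stop held 38.8%, 36.9%, 39.8% and 36.01% in TE5 in the same order and 43.7%, 46.3% and 45.2% in KYSE140. TRA2B encodes Tra2 beta, an SR-like activator of exon inclusion, and its lines did not overlap either. How often the lines separate for stop-covering transcripts of other genes was not counted. For SRSF6 the stop was held by SRSF6-202 alone, at 46.1%, 46.2%, 47.9% and 46.2% in TE5 and 46.9%, 46.5% and 52.6% in KYSE140. Here the lines overlapped and KYSE140 shSOX2 stood highest.

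**Figure D2:**
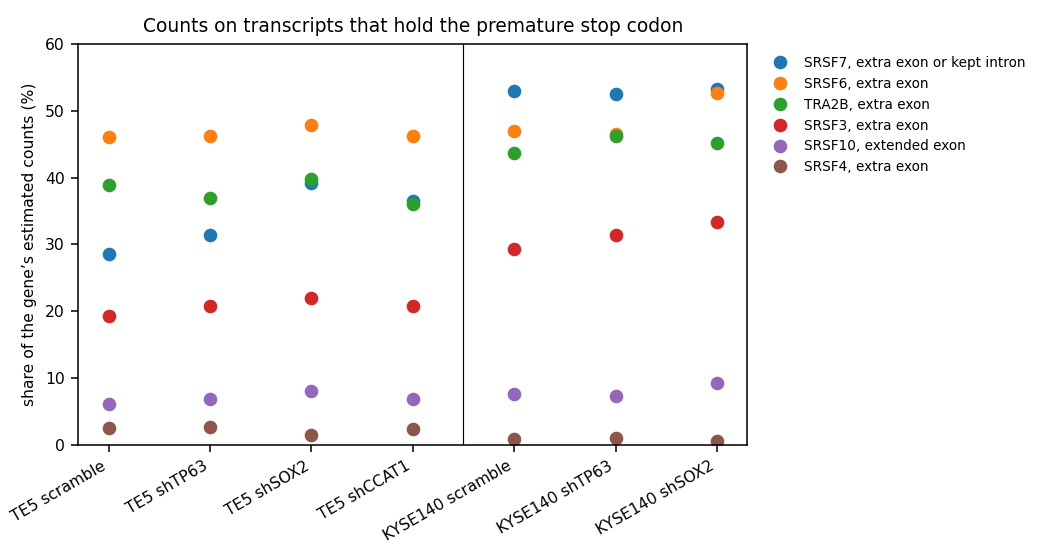
Percent of each gene's estimated counts on transcripts that cover a premature stop codon, by library (x axis), with each point 1 library and the vertical line dividing TE5 from KYSE140. SRSF7 lies between 28.6% and 39.2% in TE5 and between 52.5% and 53.2% in KYSE140, while SRSF6 lies between 46.1% and 52.6% in all libraries.

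The other abundant non-coding forms of the members hold intron sequence. SRSF5-212 took 37.1% of SRSF5 counts on average over the 7 libraries, against 27.5% for the most abundant coding form SRSF5-217, and keeps the 1215-base intron at chr14:70235969-70237183. In KYSE140 SRSF5-212 held 40.5% to 46.9% and SRSF5-217 15.7% to 16.96%. In TE5 SRSF5-212 and SRSF5-217 were nearly equal in scramble (32.7% and 32.6%) and in shSOX2 (34.3% and 34.5%). There SRSF5-217 was the higher form in shTP63 (36.9% against 32.2%) and in shCCAT1 (39.5% against 28.7%). The main intron-holding forms of SRSF10 (25.8% of its counts), SRSF11 (26.2%) and TRA2B (16.9%) are annotated as retained-intron, but start inside an intron of the main coding form and span no whole intron of it. In those introns, and in the whole introns that SRSF5-212 and SRSF7-208 keep, unspliced RNA and these transcripts cannot be told apart.

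SRSF1 and SRSF4 were mostly coding. SRSF1-205 took 71.5% of SRSF1 counts and SRSF4-201 took 96.0% of SRSF4 counts. The coding forms SRSF2-202 and SRSF2-203 led SRSF2, the former in TE5 (42.1% to 55.6% against 26.2% to 31.3%) and the latter in KYSE140 (41.9% to 47.1% against 26.1% to 31.2%). Its main non-coding form, SRSF2-208 (11.7% on average), uses the coding stop but has 2 more exons downstream of it. Coding and non-coding forms of SRSF2 share most of their sequence: 3.56% of the 31-base words of the coding forms and 6.26% of those of the non-coding forms were absent from the other class, so the division of SRSF2 counts rested on few words. For SRSF7 the coding forms had 5.36% of words of their own. Of SRSF1 words 32.4% also occurred in another gene, of SRSF2 words 23.6% (mostly MFSD11, which overlaps it) and of SRSF6 words 9.77%, against at most 4.34% for the other members, so the levels of these 3 genes are less certain.

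Among the members, TRA2B had the highest non-coding share, with a median of 64.2% over the 7 libraries and a range of 60.2% to 68.5%. SRSF5 followed at 50.9% (46.4% to 67.8%), SRSF6 at 46.5% (46.1% to 52.6%), SRSF7 at 42.3% (31.8% to 56.9%) and SRSF11 at 39.1% (26.8% to 46.8%). SRSF10 was at 35.0% (25.2% to 39.3%), SRSF2 at 25.9% (17.6% to 26.8%) and SRSF3 at 21.9% (19.3% to 33.4%). SRSF1 at 6.94% (4.46% to 8.21%) and SRSF4 at 2.29% (0.724% to 3.57%) closed the order. The ranges of SRSF5, SRSF6, SRSF7 and SRSF11 overlapped, as did those of SRSF10, SRSF2 and SRSF3. SRSF10 and SRSF3 also overlapped with SRSF7 and SRSF11. TRA2B overlapped only with SRSF5, and neither SRSF1 nor SRSF4 overlapped with any other member.

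Most members had a larger non-coding share than most other well-counted genes. Among 7490 genes that held 1000 counts or more in all libraries, a floor and not a match to the members' depth, the median gene had a mean non-coding share of 4.06%. Of these genes 1127 exceeded 25%, as did 7 of the 10 members. TRA2B lay at the 97.2nd percentile of these genes and SRSF3 at the 85.3rd, whereas SRSF4 lay at the 39.5th. The 7490 genes did not need an annotated non-coding transcript, which every member has, so these percentiles partly reflect annotation. Over the 10426 genes with 10 counts of both classes in at least 2 libraries, the median share was higher. It ran from 7.77% in TE5 scramble to 9.46% in KYSE140 shTP63. Summed over the members, 28.3% of counts were non-coding in TE5 scramble, 32.7% in shTP63, 32.4% in shSOX2 and 32.8% in shCCAT1. In KYSE140 the sums were 36.6% in scramble, 38.6% in shTP63 and 38.4% in shSOX2. Every KYSE140 sum lay above every TE5 sum, and in each line the scramble library was lowest. Over all protein-coding genes the scramble library was also lowest in each line. The non-coding share was 7.95% in TE5 scramble and 9.01% to 9.38% in its knockdowns. In KYSE140 it was 9.03% in scramble and 9.46% and 9.94% in the knockdowns, so that over all genes the lines overlapped.

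**Figure D3:**
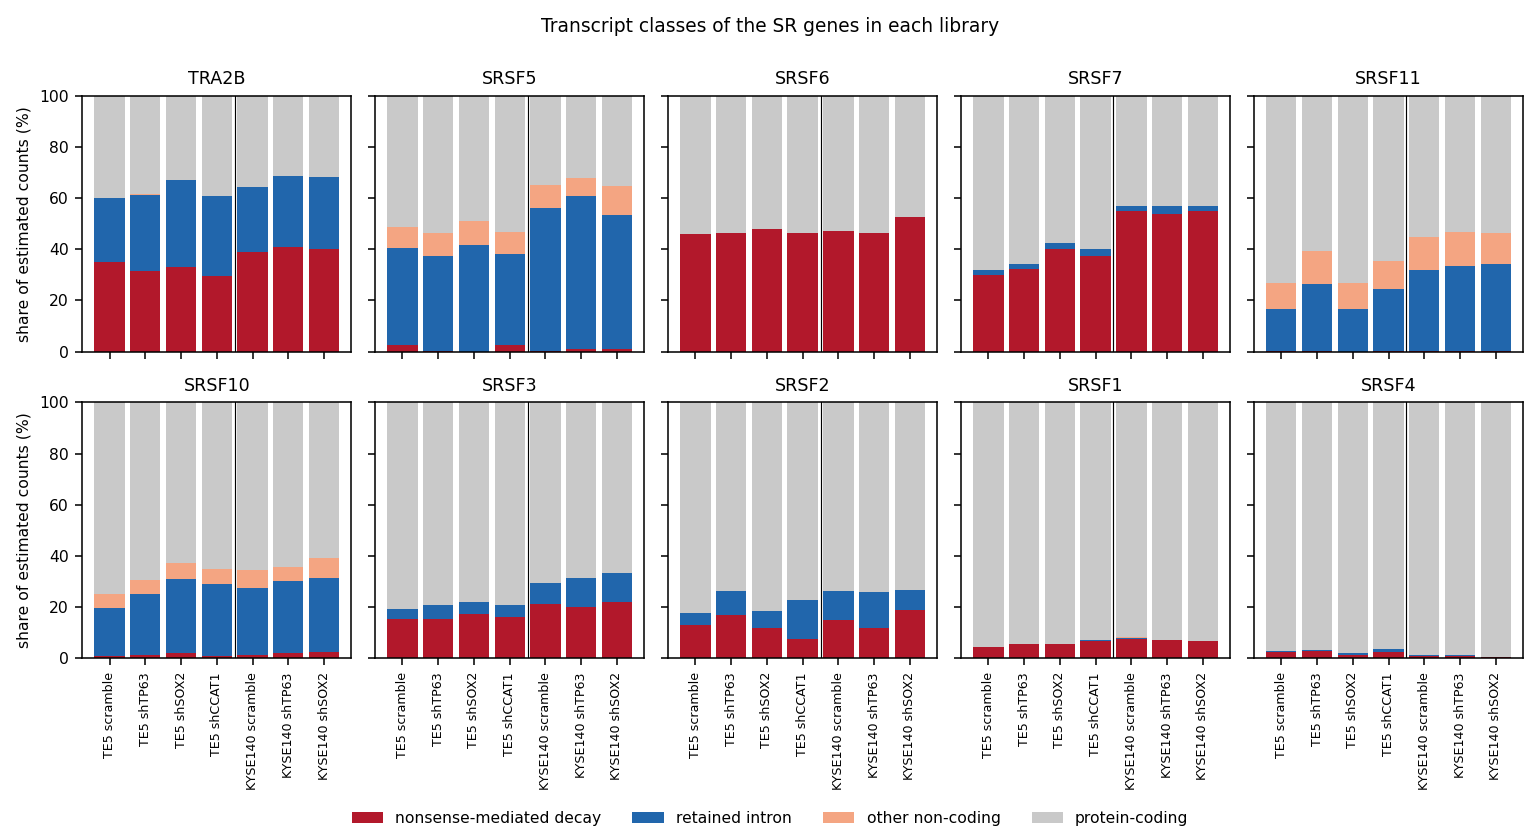
Percent of estimated counts of each member on decay (red), retained-intron (blue), other non-coding (orange) and protein-coding (grey) transcripts, 1 bar for each library, with TE5 left and KYSE140 right of the vertical line. Decay forms filled nearly all of the non-coding part of SRSF6 and SRSF7, retained-intron forms most of that of SRSF5, SRSF10 and SRSF11, and TRA2B, SRSF2 and SRSF3 held both.

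In TRA2B the decay share in TE5 was 34.9% in scramble and 29.7% to 33.1% in the knockdowns, while its retained-intron share was 25.3% in scramble and 29.98% to 34.1% in the knockdowns, so the knockdowns were lower in the former and higher in the latter. In KYSE140 the TRA2B decay share was 39.0% in scramble and 40.8% and 40.1% in shTP63 and shSOX2, and its retained-intron share 25.2% in scramble and 27.8% and 28.0% in the knockdowns, so there both were higher. In SRSF10 the decay share stayed between 0.931% and 2.38%, and the retained-intron share ran from 18.7% in TE5 scramble to 28.9% in KYSE140 shSOX2.

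Levels per length were compared in TPM. SRSF5, an SR protein that binds purine-rich exon enhancers, had the highest summed TPM of the members in all 7 libraries, from 251 to 399. SRSF2, also called SC35, ranged from 165 to 297 TPM, SRSF3, the smallest SR protein, from 148 to 235, TRA2B from 117 to 221 and SRSF1, the prototype SR protein also called ASF/SF2, from 120 to 208. These 4 ranges overlapped. SRSF4 had the lowest level of the members in TE5 (45.8 to 59.99 TPM) and SRSF6 in KYSE140 (47.7 to 61.2 TPM). The main decay forms of SRSF3 (1095 bases) and SRSF6 (1680 bases) are shorter than the coding forms (4222 and 3683 bases), and their shares were larger per length. The non-coding TPM share of SRSF3 was 49.5% to 66.4% and that of SRSF6 66.6% to 72.1%, while that of SRSF7 was 25.1% to 44.6%.

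The comparison of each knockdown with the scramble library of its line asked how the members respond to loss of TP63, SOX2 or CCAT1. With 1 library each there was no test, so shares were read against all genes with at least 100 counts in both libraries, and the 95% intervals given cover counting error only. The 3 TE5 comparisons share the scramble library, as do both of KYSE140.

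In TE5 shTP63, the non-coding share of SRSF11 was 39.1% against 26.9% in scramble, a difference of 12.2 points (11.02 to 13.4). That of SRSF2 was 26.2% against 17.6%, a difference of 8.61 points (7.88 to 9.34). SRSF11 encodes an SR-related protein found with U2AF. By counts, 1 member (SRSF11) moved by 10 points or more, as did 8.11% of 10084 genes, while by TPM share SRSF11 differed by 13.6 points and SRSF2 by 13.9. The share was higher than in scramble for 9 of 10 members and 64.6% of all genes. SRSF5 was the exception, at 48.5% in scramble and 46.4% in shTP63.

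In TE5 shSOX2, the share of SRSF10 was 37.1% against 25.2% in scramble, a difference of 11.9 points (10.6 to 13.2). That of SRSF7 was 42.3% against 31.8%, a difference of 10.5 points (9.07 to 11.9). SRSF10 encodes a splicing regulator that is a repressor when dephosphorylated, and SRSF7 an SR protein that also acts in mRNA export. By counts these 2 members moved by 10 points or more, against 8.87% of 9987 genes. By TPM share SRSF10 differed by 11.1 points and SRSF7 by 6.72. By counts 8 of 10 members were higher than in scramble, against 68.2% of all genes. SRSF11, the member farthest from scramble by counts in shTP63, was at 26.8% against 26.9% in scramble.

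In TE5 shCCAT1, the differences were 9.77 points for SRSF10 (8.57 to 10.96), 8.58 points for SRSF11 (7.42 to 9.73) and 8.16 points for SRSF7 (6.90 to 9.40). By TPM share these were 6.96, 7.06 and 5.09 points. By counts 0 members moved by 10 points or more, against 10.3% of 9966 genes. By TPM share SRSF4 differed by 13.5 points (0.536 by counts) and SRSF2 by 11.5 (5.26 by counts). The SRSF4 value rested mostly on SRSF4-203, a 206-base transcript with 5.44 estimated counts in scramble and 36.1 in shCCAT1 (1.84 and 10.2 TPM). The share was higher by counts for 9 of 10 members than in scramble, against 63.2%. In KYSE140 shTP63 and shSOX2, again 0 members moved by 10 points or more, against 6.59% of 9699 and 7.25% of 9616 genes. There, 7 members were higher in shTP63 and 6 in shSOX2, against 63.6% and 58.9% of all genes. The differences in KYSE140 that were farthest from 0 were 4.35 points for TRA2B in shTP63 (3.16 to 5.54) and 5.70 points for SRSF6 in shSOX2 (3.89 to 7.5).

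**Figure D4:**
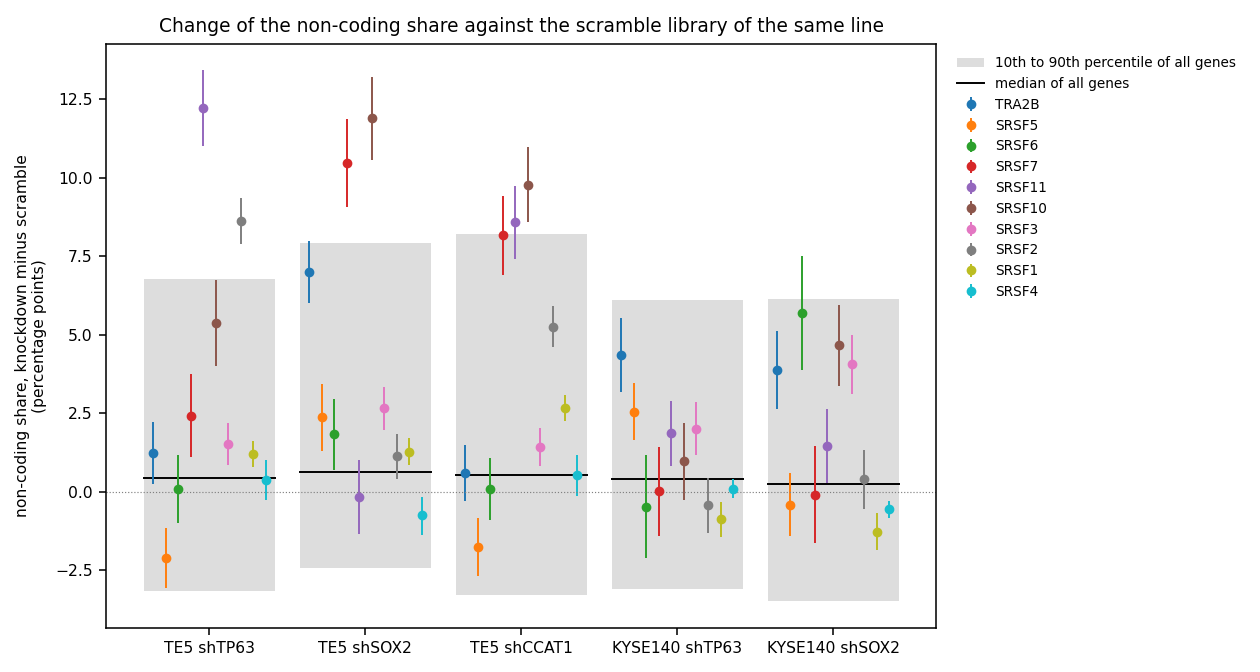
Difference of the non-coding share from the scramble library of the same line in percentage points (y axis) for each of 5 knockdown libraries (x axis). Points are members with 95% intervals for counting error, grey areas the 10th to 90th percentile of all genes and black lines their median. SRSF11 and SRSF2 in TE5 shTP63, SRSF7 and SRSF10 in TE5 shSOX2 and SRSF10 and SRSF11 in TE5 shCCAT1 lie above the grey area, and no member does in KYSE140.

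In all 3 TE5 knockdowns the share was above scramble for 7 members (SRSF1, SRSF2, SRSF3, SRSF6, SRSF7, SRSF10 and TRA2B), against 39.2% of 9369 genes. In both KYSE140 knockdowns it was above scramble for 4 members (SRSF3, SRSF10, SRSF11 and TRA2B), against 43% of genes. In all 5 knockdowns it was above scramble for SRSF3, SRSF10 and TRA2B, that is for 3 members, against 19.9% of genes. These counts hold for estimated counts: by TPM share TRA2B differed by -0.95 points in TE5 shTP63 and -0.89 in TE5 shCCAT1 (1.24 and 0.598 by counts), and SRSF11 by -1.73 in KYSE140 shSOX2 (1.46 by counts). Counting intervals spanned 0 for TRA2B in TE5 shCCAT1 (-0.30 to 1.501) and for SRSF6 in TE5 shTP63 (-0.98 to 1.18) and shCCAT1 (-0.90 to 1.08). They also spanned 0 for SRSF10 in KYSE140 shTP63 (-0.25 to 2.19). The retained-intron share over all genes and the lane moved with these differences, and their part in them was not tested.

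TP63 and SOX2 silencing were then fitted over 6 libraries, with the cell lines standing in for replicates and the line as a term. The p-values therefore measure how far the shRNA effects differ between the lines, and not the spread between cultures. edgeR's quasi-likelihood test called 0 members for the ratio of non-coding to coding counts. Over all 10426 genes tested, 0% passed an adjusted p of 0.1 for TP63 and likewise 0% for SOX2, with 882 and 877 genes at an unadjusted p under 0.05, none of them a member. DESeq2 called 228 and 239 genes, with 0 members. The log2 ratio was positive for 9 of 10 members under either shRNA, with medians of 0.14 for TP63 and 0.14 for SOX2 beside 0.20 and 0.22 over all genes.

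At the gene level also, edgeR called 0 members for TP63 and 0 for SOX2, with 0 at an unadjusted p under 0.05 and 0 called by DESeq2. Over all 23438 genes 0.939% were called for TP63 and 0.145% for SOX2. Fitted log2 changes of the members had a median of -0.19 for TP63 and -0.12 for SOX2 beside 0.04 and 0.01 over all genes. Normalized counts of SRSF1 were 24218 in TE5 scramble, 15765 in shTP63, 20379 in shSOX2 and 22681 in shCCAT1, and 20346, 20114 and 17867 in KYSE140 scramble, shTP63 and shSOX2. Those of SRSF10 were 9486, 5922, 9747 and 10883 in TE5 and 13684, 12833 and 13415 in KYSE140. Both were lowest in TE5 shTP63 within TE5, with log2 differences from scramble of -0.62 (-0.65 to -0.59) and -0.68 (-0.72 to -0.64), while KYSE140 shTP63 lay at -0.02 and -0.09.

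The lines were compared with 3 libraries each (scramble, shTP63 and shSOX2), matched by shRNA. Libraries with different shRNAs stood in for the replicates of a line. The p-values for the line therefore do not measure the spread between cultures either. KYSE140 had larger non-coding shares of SRSF7, SRSF5, SRSF11 and SRSF3 and a smaller one of SRSF4. In level it had more of SRSF4, SRSF11 and SRSF10 and less of SRSF6, but 66.1% of all genes were called between the lines, so level calls are not particular to the members. SRSF5 and TRA2B, also called in level, lost the call when some libraries were left out, and SRSF5 was lower in KYSE140 when coding transcripts alone were counted. The lines also differ in lane, and line and lane cannot be told apart.

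SRSF7 non-coding shares were 31.8%, 34.2% and 42.3% in TE5 scramble, shTP63 and shSOX2, 40.0% in shCCAT1, and 56.8% to 56.9% in KYSE140. The log2 ratio of non-coding to coding counts was higher in KYSE140 by 1.23 ± 0.22 (SE, adjusted p = 0.0425, edgeR). SRSF5 shares were 48.5%, 46.4%, 50.9% and 46.7% in TE5 scramble, shTP63, shSOX2 and shCCAT1 and 65.2%, 67.8% and 64.8% in KYSE140 scramble, shTP63 and shSOX2, with a difference of 1.04 ± 0.18 (adjusted p = 0.0425, edgeR). Neither gene overlapped between the lines.

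SRSF11 shares were 26.9%, 39.1%, 26.8% and 35.5% in TE5 and 45.0%, 46.8% and 46.4% in KYSE140, shRNAs in that order, with a log2 difference of 0.95 ± 0.23 (adjusted p = 0.0731, edgeR). SRSF3 shares were 19.3%, 20.8%, 21.9% and 20.7% in TE5 and 29.4%, 31.4% and 33.4% in KYSE140, with a difference of 0.81 ± 0.16 (adjusted p = 0.0501, edgeR). For SRSF4, which differed the other way, the shares were 3.04%, 3.43%, 2.29% and 3.57% in TE5 and 1.27%, 1.38% and 0.724% in KYSE140, a difference of -1.43 ± 0.20 (adjusted p = 0.0324, edgeR). The groups of these 3 genes did not overlap.

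The test thus called 5 of 10 members for the line, against 19.7% of 10426 genes, of which 4 were higher and 1 lower in KYSE140. The median log2 difference was 0.50 over the members and 0.11 over all genes. Shares of the KYSE140 libraries all lay above those of the TE5 libraries for 4 members (SRSF3, SRSF5, SRSF7 and SRSF11), against 16.3% of 9369 genes, and all below them for SRSF4, against 11.6%. The calls did not hold without every library: leaving out the scramble or the shTP63 library of either line left 0 members called, although the 5 log2 differences kept their sign. SRSF3 and SRSF11 were called only with all 6 libraries, whereas SRSF4, SRSF5 and SRSF7 were also called without the shSOX2 library of either line. With the ratio taken in TPM and tested by limma, SRSF4 and SRSF7 were called (2 of 10 members), near the 21.6% of 10426 genes that limma called.

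Divided by class, retained-intron transcripts alone gave 3 calls between the lines, SRSF3, SRSF5 and SRSF11, among the 9 members that could be tested, against 22% of 6814 genes. Decay transcripts alone gave 0 calls in edgeR over 4640 genes (0%), with 898 genes at an unadjusted p under 0.05, among them the 2 members SRSF4 and SRSF7. In that test the SRSF7 difference was 1.25 ± 0.27 with an adjusted p of 0.183, and that of SRSF3 was 0.61 ± 0.23 with an adjusted p of 0.272. TRA2B had 0.43 ± 0.25 for its decay forms and 0.03 ± 0.22 for its retained-intron forms, neither of them called.

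The members not called for the ratio were SRSF1 (log2 difference 0.54 ± 0.21, adjusted p = 0.161, edgeR), SRSF2 (0.47 ± 0.23), SRSF10 (0.37 ± 0.20), TRA2B (0.25 ± 0.18) and SRSF6 (0.11 ± 0.18). All 5 were positive, with adjusted p-values of up to 0.715, and a p above the threshold does not show equal shares.

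At the gene level, SRSF4 had 5255, 5157, 5840 and 5504 normalized counts in TE5 scramble, shTP63, shSOX2 and shCCAT1 and 13311, 12404 and 14031 in KYSE140 scramble, shTP63 and shSOX2. Its log2 difference was 1.29 ± 0.11 (adjusted p = 6.81e-05, edgeR). SRSF6 went the other way, with 15906, 13576, 14765 and 21389 in TE5 and 8010, 8407 and 7158 in KYSE140, a difference of -0.91 ± 0.12 (adjusted p = 0.000512, edgeR). In neither gene did the lines overlap, nor did they in SRSF10 or SRSF11. How many of all genes separate in level between the lines was not counted.

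SRSF11 was higher in KYSE140 by 0.86 ± 0.14, SRSF10 by 0.70 ± 0.15 and SRSF5 by 0.31 ± 0.11 on the log2 scale, and TRA2B differed by -0.33 ± 0.12. In all, 6 of 10 members were called by edgeR, which is near the 66.1% of 23438 genes called between these lines. SRSF5 and TRA2B lost their call (adjusted p up to 0.265) when the scramble or shSOX2 library of either line was left out. SRSF1, SRSF2, SRSF3 and SRSF7 were not called, with log2 differences between -0.13 and 0.22.

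The direction of 3 levels depended on the transcripts counted. With protein-coding transcripts only, SRSF7 was lower in KYSE140 by a log2 difference of -0.40 ± 0.11 (adjusted p = 0.0192, edgeR) and SRSF5 by -0.35 ± 0.13 (adjusted p = 0.0551), whereas with all transcripts both were positive. SRSF2, not called either way, was at 0.06 ± 0.14 with all transcripts and at -0.11 ± 0.15 with coding ones. SRSF3 differed by -0.40 ± 0.12 for coding transcripts (adjusted p = 0.0253, edgeR) and by -0.13 ± 0.12 in all. Coding TPM of SRSF7 was 103, 84.9, 85.5 and 115 in TE5 scramble, shTP63, shSOX2 and shCCAT1 and 75.4, 74.96 and 59.7 in KYSE140, while its non-coding TPM was 34.4, 31.5, 39.98 and 50.04 in TE5 and 58.1, 60.5 and 46.1 in KYSE140. The coding values did not overlap between the lines, and the non-coding values did. Separation in coding TPM was not counted over all genes. With coding transcripts, 8 of 10 members were called, 5 of them lower in KYSE140, against 70.3% of 15322 genes.

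**Figure D5:**
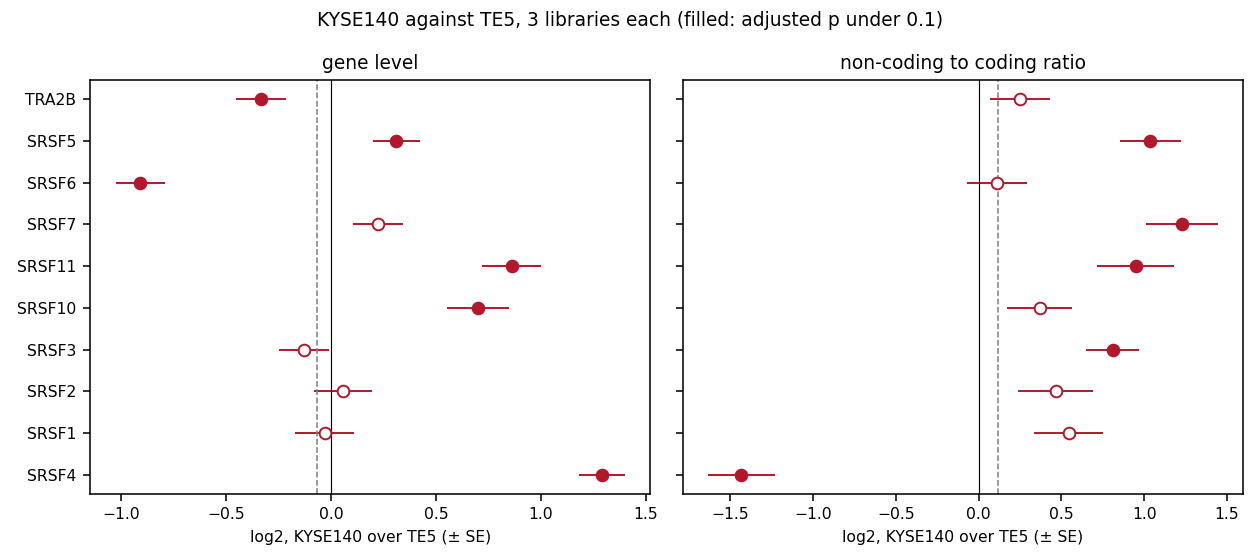
Log2 difference of KYSE140 over TE5 (x axis, ± SE from the edgeR fit over 6 libraries) for the level of each member (left) and its ratio of non-coding to coding counts (right). Filled points passed an adjusted p of 0.1 and dashed lines mark the median of all genes. SRSF4 is at 1.29 in level and -1.43 in ratio, and 9 of 10 ratios lie right of 0.

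Genes that work with SR proteins were taken as lists, to be read against the 66.1% of all genes called in level and the 19.7% called in ratio between the lines. Of 14 tested other SR and SR-like genes, 7 had a higher and 3 a lower level in KYSE140, led by SRSF12 (log2 difference 1.62) and the coactivator SRRM1 (1.16). Among 13 tested for the ratio, 2 were higher and 1 lower in KYSE140. TRA2A, the paralog of TRA2B, had non-coding shares of 22.2%, 24.4%, 23.1% and 30.4% in TE5 scramble, shTP63, shSOX2 and shCCAT1 and 44.7%, 43.6% and 51.9% in KYSE140 (log2 difference 1.54, adjusted p = 0.0311, edgeR). The TRA2A lines did not overlap, whereas SNRNP70, of the U1 particle, had a difference of 1.14 with overlapping lines (20.5% to 36.9% in TE5 and 28.0% to 55.8% in KYSE140). Of 10 kinases of SR proteins, 4 were higher and 3 lower in KYSE140, with CLK3 at 1.80 and TOP1, which phosphorylates SR proteins besides its topoisomerase role, at -1.85. TOP1 was measured on 1 of its 2 annotated coding transcripts, SRRM1 on 4 of 8 and TRA2A on 2 of 3. Of 8 kinases tested for the ratio, PRPF4B alone was called, at 0.86, with lines that overlapped (38.0% to 55.9% in TE5 and 54.0% to 62.8% in KYSE140).

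SRPK1, which phosphorylates SR proteins in the cytoplasm, was the only gene of these 2 lists that edgeR called upon silencing. DESeq2 called 4 of the 10 kinases for TP63 in level, against 7.9% of 23438 genes. SRPK1 had 11253, 4907, 11811 and 12149 normalized counts in TE5 scramble, shTP63, shSOX2 and shCCAT1 and 9510, 5511 and 8414 in KYSE140 scramble, shTP63 and shSOX2. It was lowest in shTP63 in either line, with a log2 change of -0.98 ± 0.18 (adjusted p = 0.0997, edgeR). The call sat at the threshold and was lost with protein-coding transcripts only (adjusted p = 0.127), with unassigned transcripts kept (adjusted p = 0.303), without the line as a term and without either scramble library. Over the alternatives its log2 change ran from -1.27 to -0.75.

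Of 16 nonsense-mediated decay factors, edgeR called 0 upon silencing of TP63 in level and 0 in ratio, with 2 and 4 at an unadjusted p under 0.05 and 1 and 2 called by DESeq2. For SOX2 it called 0 in level and 0 in ratio, with 1 and 3 at an unadjusted p under 0.05 and 0 called by DESeq2. Over all genes, 3366 of 23438 had an unadjusted p under 0.05 in level for TP63 and 2095 for SOX2. In ratio these were 882 and 877 of 10426. DESeq2 called 1851 genes in level for TP63 and 703 for SOX2, and 228 and 239 in ratio. Between the lines 66.1% of all genes were called in level and 19.7% in ratio, and the counts of this list and the next ones stand beside these shares. In level 10 decay factors were higher and 3 lower in KYSE140, with SMG9 at a log2 difference of 1.40 and EIF4A3 at 1.35. However, EIF4A3 was measured on 1 of its 3 annotated coding transcripts. In the ratio 3 were higher and 1 lower, with SMG5 at 2.04. The lower gene was EIF4A3, whose coding transcript was listed at 0 in all 4 TE5 libraries and in KYSE140 scramble, so that no fold is given. Of 27 hnRNP genes, which often oppose SR proteins, 15 were higher and 2 lower in KYSE140 (HNRNPA2B1 1.35 and HNRNPUL1 1.14), and in the ratio 6 were higher and 2 lower among 24, with HNRNPUL2 at 2.41 (shares at most 0.336%, lines overlapping) and HNRNPF, whose non-coding share was at most 0.114% in KYSE140 and 1.72% to 2.57% in TE5, at -5.25. HNRNPA2B1 was measured on 3 of its 7 annotated coding transcripts. Upon silencing, edgeR called 0 hnRNP genes in level for TP63 and 0 for SOX2. Of the 27, 4 and 5 had an unadjusted p under 0.05, and DESeq2 called 4 and 1. Over all 23438 genes these numbers were 3366 and 2095 at that p, and 1851 and 703 by DESeq2. Of 15 genes whose transcripts are known decay substrates, 12 were higher and 2 lower in KYSE140, with RPL3 at 1.90 and GAS5 at 1.60, and in the ratio 4 of 7 were lower, with ATF3 at -2.30 and GADD45B at -1.49.

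The genes whose non-coding share over the 7 libraries ran most like the mean share of the members were USP22, RCN1 and PKP3, by Pearson's r of 0.994, 0.992 and 0.992 among 6523 genes. The mean share of the members was 28.3%, 31.4%, 32.1% and 31.8% in TE5 scramble, shTP63, shSOX2 and shCCAT1 and 37.8%, 38.8% and 39.6% in KYSE140. USP22 shares were 0.351%, 0.645%, 0.660% and 0.706% in TE5 and 1.20%, 1.42% and 1.51% in KYSE140. The 7 points share their libraries and fall into the 2 lines.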

How the data were processed

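RNA from the 7 libraries was sequenced and, by the authors' methods, pseudoaligned with kallisto to the hg19 Ensembl transcriptome (version of kallisto not given in the sources used here). The authors deposited an estimated count and a TPM value for each transcript, unscaled between libraries. The labels name total RNA, and strand and poly(A) selection are not given. Transcripts received genes and biotypes from GENCODE 44 on GRCh37. A group of 13491 transcripts with 6.31% to 6.55% of counts had no gene there and was left out, so retired transcripts of a member would be missing. Member lengths equalled the annotation for 94 of 108 transcripts.

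Estimated counts were rounded and summed per gene or class. Gene levels were tested with edgeR 4.0.16 (TMM, filterByExpr, quasi-likelihood) with line and shRNA as terms, and the class ratio with library, class, class by line and class by shRNA, for genes with 10 counts of both classes in at least 2 libraries. Adjusted p-values (Benjamini-Hochberg over all genes) under 0.1 were called. TE5 shCCAT1 was outside the fits. DESeq2 1.42.0 and limma 3.58.1 (TPM ratio, pseudocount 0.1) were alternatives, with other filters on low counts, DESeq2 size factors, transcript classes taken alone, no term for the line and each library left out. Single-library level differences are log2 of TMM-normalized counts plus 1, and intervals of share differences are 95% Newcombe intervals, built from Wilson intervals, that cover counting error only.

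The members, the gene lists and the tests were chosen with earlier results of these data known. Named beside the members were, per list, the 2 called genes of largest log2 difference, and the 3 genes most like the members' mean share.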

Additional observations from a re-analysis of the deposited data

Results flagged for a closer look

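Under the same shRNA some members moved in opposite directions in the lines, with counting intervals on opposite sides of 0. These differences were not tested, since each rests on 4 libraries. How many of all genes moved in this way was not counted. Each value below lay within the 10th to 90th percentile of all genes in its comparison. The non-coding share of SRSF1 changed by 1.20 points in TE5 shTP63 and by -0.877 points in KYSE140 shTP63, and by 1.28 points in TE5 shSOX2 and -1.26 points in KYSE140 shSOX2. That of SRSF5 changed by -2.11 points in TE5 shTP63 and by 2.55 points in KYSE140 shTP63. The level of SRSF2 changed by -0.60 on the log2 scale in TE5 shTP63 and by 0.0361 in KYSE140 shTP63. The level of SRSF6 changed by -0.23 in TE5 shTP63 and by 0.0698 in KYSE140 shTP63. The level of SRSF11 changed by -0.12 in TE5 shTP63 and 0.30 in KYSE140 shTP63, and by 0.0840 in TE5 shSOX2 and -0.10 in KYSE140 shSOX2.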

How the results depend on the processing

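The number of genes called upon TP63 silencing at the gene level was 220, and was 1851 by DESeq2, 1211 with at least 1 count, 6 with protein-coding transcripts only, 0 without the line as a term (the replicate block), 0 with unassigned transcripts kept as single features (chosen after seeing the data), and 0 to 2129 with a library left out. For SOX2 it was 34, and was 703, 390, 24, 0 and 1 under these settings in turn and 0 to 918 with a library left out. Members called for TP63 were 0, except that SRSF1 and SRSF10 were called without KYSE140 shTP63. In that fit the TP63 term rests on the TE5 shTP63 library alone, so its calls have no replicate. The same fit gave the highest number of genes called for TP63. In TE5 shTP63 the log2 differences from scramble were -0.62 for SRSF1 and -0.68 for SRSF10. The line kept 12976 to 14743 gene-level calls with a library left out, and 4 to 6 members. DESeq2 called 228 genes for TP63 and 239 for SOX2 in the ratio, where edgeR called 0, also without the replicate block. The line gave 2056 ratio calls, 0 with decay transcripts only and 184 to 1221 with a library left out, which by construction leaves fewer matched pairs. Members called were 5, and 0 with decay transcripts only, 2 by limma on TPM, 3 with retained-intron transcripts only and 0 to 3 with a library left out.

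The level difference between the lines turned sign with protein-coding transcripts only for SRSF2 (-0.11), SRSF5 (-0.35) and SRSF7 (-0.40). With a library left out it ran from -0.21 to 0.0741 for SRSF1 and from -0.0879 to 0.21 for SRSF2. The SRSF11 ratio was -0.0743 with decay transcripts only, which held at most 0.282% of its counts. The cause of the other changes was not tested. By TPM the summed non-coding share of the members was 37.4%, 41.8%, 41.7% and 43.2% in TE5 scramble, shTP63, shSOX2 and shCCAT1 and 45.9%, 48% and 48.1% in KYSE140 scramble, shTP63 and shSOX2. With decay and retained-intron transcripts only it was 27.0%, 30.8%, 30.8% and 31.3%, and 34.5%, 36.6% and 36.1%. Members with a lower level than scramble numbered 4 in TE5 shTP63, 0 in TE5 shCCAT1, 0 in KYSE140 shTP63 and 4 in KYSE140 shSOX2 without scaling, beside 9, 2, 6 and 9 with it. Unscaled differences also hold the difference in depth, as between 68532611 total counts in KYSE140 scramble and 97759688 in KYSE140 shTP63. With 1 library per condition no alternative can separate the shRNA from the lane.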
